A study of Mus musculus with 4 samples.

Results

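The cytosolic ribosomal protein genes code for the proteins that, with ribosomal RNA, build the ribosomes of the cytoplasm. Their probes were taken as all array probes, controls left out, whose gene name starts with Rpl (large subunit) or Rps (small subunit) followed by a digit. The Rps6k kinases and names of pseudogene or related-sequence form were left out. This gave 132 of 41174 probes, under 78 gene names: 75 large subunit probes under 46 names and 57 small subunit probes under 32 names. The rule used names only and no measured value. It also takes in Rps19bp1, which codes for a protein that binds Rps19 and is not itself a ribosomal protein, and it misses the ribosomal genes that have other names, such as Rplp0 and Rpsa.

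A ribosome needs one copy of nearly every ribosomal protein, and cells are known to make these proteins in step with each other and with growth. Their messenger RNAs start with a stretch of pyrimidines (the TOP element) through which the growth kinase mTOR controls translation, so much of their known control lies beyond RNA level. A few of them, among them Rpl5 and Rpl11, bind and inhibit Mdm2 when ribosome assembly fails, which stabilises p53. The retinoblastoma protein coded by Rb1 restrains E2F transcription factors and is also known to restrain the RNA polymerases that make ribosomal RNA and transfer RNA.

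Prostate RNA from 4 mice aged 60 days was compared with pooled RNA of 3 wild-type mice on two-colour Agilent arrays, with the mouse in the red Cy5 channel and the pool in the green Cy3 channel of every array. The 2 mutant mice were Rb1R654W/F:Trp53F/F:PB-cre4, with a retinoblastoma protein that the series title describes as deficient in E2F binding, over a conditional allele. The 2 null mice were Rb1F/F:Trp53F/F:PB-Cre4. All 4 mice thus carried conditional Trp53 alleles and the Cre transgene, which the pool lacked, and the strain was mixed C57BL/6:129/SVJae:FVB. The probasin promoter drives this Cre in prostate epithelium, so other cells in the tissue keep their alleles. With whole tissue, fewer cells of a type and less RNA per cell cannot be told apart. All values below are log2 ratios of mouse over pool after loess normalisation, unless a difference between genotypes is named; a value of 1 is a doubling relative to the pool. The files place probes on build mm7.

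The null mice were not alike, and neither were the mutant mice. After background subtraction, the median signal of the mouse channel was 90.1 in mutant mouse 1 and 81.9 in mutant mouse 2, while null mouse 1 had 20.5 and null mouse 2 had 55.1; the pool channel had 24.2 to 24.9. The 7 measured heat shock genes had a median log2 ratio of 3.56 in null mouse 1, against 0.25 in null mouse 2 and 0.06 and -0.15 in mutant mice 1 and 2. Basal epithelial markers (Krt5, Krt14, Trp63) had medians of -0.31 and -0.33 in mutant mice 1 and 2, against 0.98 and -0.05 in null mice 1 and 2. Macrophage markers had medians of 0.69 and 0.70 in mutant mice 1 and 2, against -0.37 and 1.10 in null mice 1 and 2. Seminal vesicle secretion genes were at -4.08 and -0.61 in mutant mice 1 and 2, against -4.64 and -3.59 in null mice 1 and 2. Prostate luminal markers, with all 5 of 5 past the signal filter, had medians of 0.25 and 0.04 in mutant mice 1 and 2, against 0.42 and -0.25 in null mice 1 and 2. The Rb1 probe read -0.65 and -0.24 in mutant mice 1 and 2, against 0.09 and -0.87 in null mice 1 and 2. Leaving out each mouse in turn is given beside the results it moves.

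To be tested, a probe had to have a mouse signal well above background in both mice of at least 1 genotype, or a pool signal that was so on all 4 arrays. Of the 132 probes 126 passed, for 77 of 78 genes, and 121 were well above background in both channels on all arrays. The 6 that did not pass were further probes of Rps19, Rps2, Rpl35a, Rpl22l1 and Rps4x, and the Rpl41 probe, whose spots carried outlier flags on all 4 arrays. Both markers of the class were measured. Rpl3, a protein near the peptidyl transferase centre of the large subunit, is described below among the low genes, and Rps3, a protein at the mRNA entry of the small subunit, among the high ones.

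Probes chosen for contrasts within this class are shown first. The Rps19 pair is shown because the probes gave opposite readings of 1 gene. They lie on the plus strand at chr7:21674338-21674663 and chr7:21678419-21678478, and the first interval is longer than the probe because the probe matches the genome in pieces.
Rps19 A_51_P337290: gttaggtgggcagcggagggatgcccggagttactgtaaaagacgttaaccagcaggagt
Rps19 A_52_P404955: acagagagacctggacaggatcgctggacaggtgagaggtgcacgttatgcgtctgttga
The upper Rps3 and Rps18 probes gave among the highest values in the mutant mice. The Rps3 probe lies at chr7:95513146-95513420 and the Rps18 probe at chr17:32030556-32030615, both on the minus strand.
Rps3 A_52_P768: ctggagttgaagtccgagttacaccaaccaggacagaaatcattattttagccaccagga
Rps18 A_52_P193899: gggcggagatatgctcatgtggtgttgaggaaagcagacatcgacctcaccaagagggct
The Rpl35a and Rpl36 pairs are shown because they stood lower in the mutant mice. Capitals mark the longest stretch that both probes of a gene share, 25 bases in Rpl35a and 23 in Rpl36, so the probes of each pair are not independent readings. They lie on the plus strand at chr16:32732018-32733213 and chr16:32732033-32733233 for Rpl35a, and at chr17:54823633-54823692 and chr17:54823654-54823795 for Rpl36.
Rpl35a A_51_P509107: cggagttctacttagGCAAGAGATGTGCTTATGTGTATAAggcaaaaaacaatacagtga
Rpl35a A_52_P288669: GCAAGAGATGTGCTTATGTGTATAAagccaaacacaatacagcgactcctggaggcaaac
Rpl36 A_52_P233312: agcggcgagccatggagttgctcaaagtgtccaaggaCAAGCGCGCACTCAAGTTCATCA
Rpl36 A_51_P361875: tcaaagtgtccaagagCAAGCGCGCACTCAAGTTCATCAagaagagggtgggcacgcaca

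The class as a whole sat slightly above the pool on every array. Its median log2 ratio was 0.32 and 0.15 in mutant mice 1 and 2, against 0.10 and 0.24 in null mice 1 and 2. The medians of all tested probes were 0.03, 0.02, -0.01 and 0.01 on the same arrays. The share of ribosomal protein probes above 0 was 67.5% and 70.6% in mutant mice 1 and 2, against 61.3% and 83.9% in null mice 1 and 2. The genotypes overlapped: null mouse 2 had a higher median than mutant mouse 2. Under loess the spread differed more than the level. The SD of the class was 0.62 and 0.32 in mutant mice 1 and 2, against 0.35 and 0.29 in null mice 1 and 2. Over all tested probes it was 0.44 and 0.29 in mutant mice 1 and 2, against 0.54 and 0.32 in null mice 1 and 2. In mutant mouse 1 the probes ran between -0.67 and 2.94, with an SD of 0.62, and 23 probes (18.3%) were above 1, against 2.71% of all tested probes. In mutant mouse 2 they ran between -1.01 and 0.98, in null mouse 1 between -1.15 and 1.16, and in null mouse 2 between -0.45 and 1.19, with 0, 1 and 1 probes above 1.

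**Figure D1:**
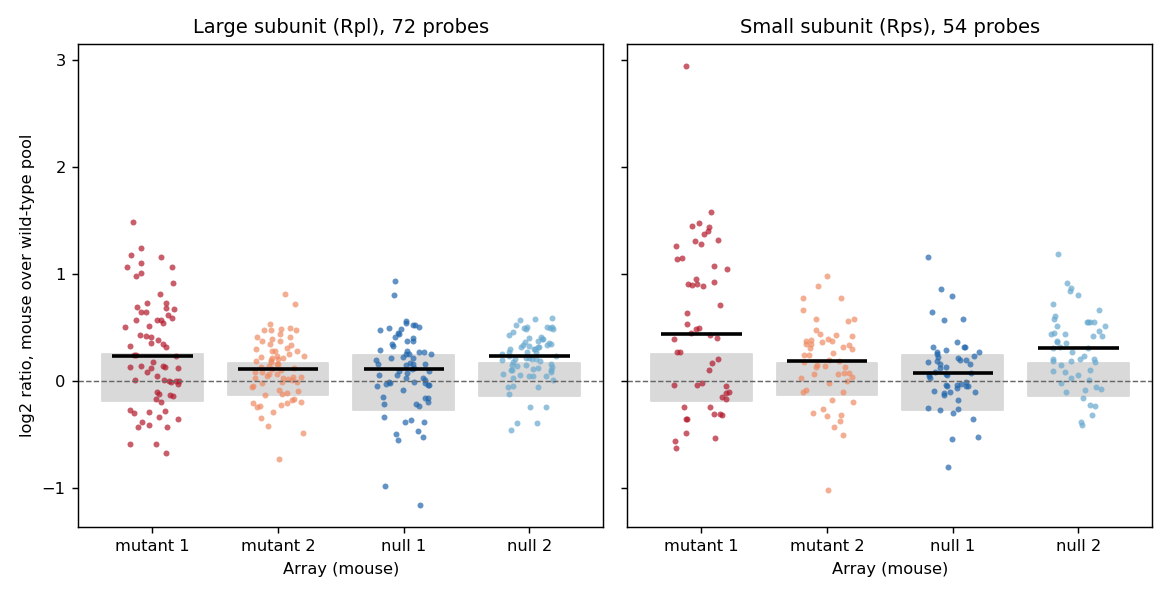
Log2 ratio of mouse over wild-type pool for each ribosomal protein probe on the 4 arrays, large subunit (72 probes) left and small subunit (54 probes) right. Black lines are medians over the probes and grey boxes the quartiles of all tested probes on that array. The medians lie above 0 on each array, and mutant mouse 1 has the widest spread, with Rps19 at 2.94.

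The level of the class depended on how the arrays were normalised. Under median centring, which shifts each array by 1 constant, the class had medians of 1.62 and 1.21 in mutant mice 1 and 2, against 0.35 and 1.27 in null mice 1 and 2. All tested probes moved too, to 0.62 and 0.56 in mutant mice 1 and 2, against -0.04 and 0.41 in null mice 1 and 2. Relative to all tested probes the class was at 1.01 and 0.66 in mutant mice 1 and 2, against 0.40 and 0.85 in null mice 1 and 2. Loess instead gave 0.29 and 0.12 in mutant mice 1 and 2, against 0.10 and 0.23 in null mice 1 and 2. Fitting the loess curve without the ribosomal protein probes moved the medians by little, to 0.33 and 0.16 in mutant mice 1 and 2, against 0.12 and 0.28 in null mice 1 and 2. The class stood above all tested probes on every array under each of the 4 normalisations, while the size of the difference varied. Of the 48 probes named below, 21 had a mutant mean below the pool under loess, and 19 of these were above it under median centring. Between the genotypes 24 were lower in the mutants under loess; 20 of these were higher under median centring, and 17 were below the median of all tested probes there. Directions below are those under loess.

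**Figure D2:**
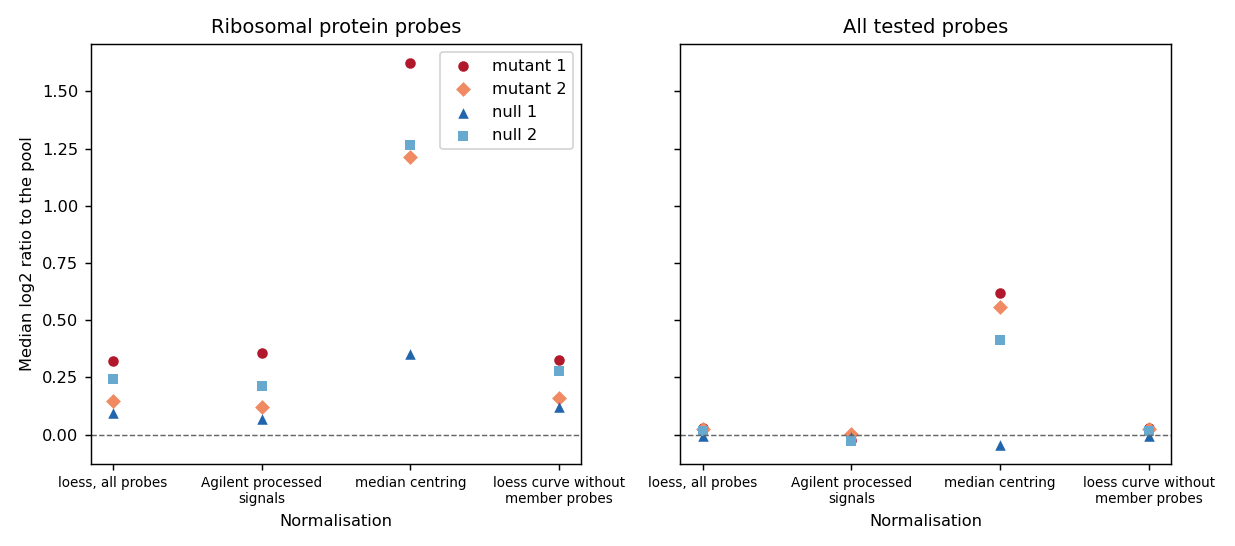
Median log2 ratio to the pool on each array under 4 normalisations, for ribosomal protein probes (left) and all tested probes (right). The ribosomal protein medians are highest under median centring, at 1.62 in mutant mouse 1, where the median of all tested probes is 0.62; under the 3 other settings they lie between 0.07 and 0.35.

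The subunits differed most in mutant mouse 1. Small subunit probes had medians of 0.44 and 0.19 in mutant mice 1 and 2, against 0.07 and 0.31 in null mice 1 and 2. Large subunit probes had medians of 0.24 and 0.12 in mutant mice 1 and 2, against 0.12 and 0.23 in null mice 1 and 2. The small minus large difference was 0.20 and 0.08 in mutant mice 1 and 2, against -0.05 and 0.07 in null mice 1 and 2, and so did not have the same sign on every array. The mice of a genotype differed as well: mouse 1 minus mouse 2 had a median over the class of 0.21 in the mutants and -0.16 in the nulls.

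No ribosomal protein probe passed an adjusted p of 0.05 in limma's moderated test, in which p-values were adjusted over all tested probes of the array. In mutant against pool this was 0 of 126 probes, where 0% of all 24925 tested probes passed. The smallest adjusted p in the class was 0.453, and the median log2 ratio was 0.25 over the class and 0.03 over all tested probes. At an unadjusted p under 0.05, limma gave 36 of 126 probes, where the share of all tested probes was 10.6%. Of these 34 were higher in the mutants, where 6.25% of all tested probes were, and 2 lower, where 4.36% were. Of the 34, 14 were among 72 large subunit probes and 20 among 54 small subunit probes. Both mutant mice were above the pool at 69 of 126 probes, where the share of all probes was 37.2%, and both below at 21, where it was 29.3%. The class median was 0.15 without mutant mouse 1 and 0.32 without mutant mouse 2, where that of all tested probes was 0.02 and 0.03.

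In null against pool, 0 of 125 probes passed the adjusted threshold in limma, where 0% of all tested probes passed, and the smallest adjusted p in the class was 0.473. The median log2 ratio was 0.18 over the class and 0.02 over all tested probes. At an unadjusted p under 0.05 there were 16 probes, where the share of all tested probes was 10.2%. Of these 14 were higher in the nulls, where 4.83% of all tested probes were, and 2 were lower, where 5.38% were. Of the 14, 10 were large subunit probes and 4 were small subunit probes. The class median was 0.24 without null mouse 1 and 0.10 without null mouse 2, where that of all tested probes was 0.01 and -0.01. Both null mice were above the pool at 64 of 123 probes, where the share of all probes was 29.2%, and both below at 8, where it was 27.3%. The comparisons with the pool share the pool sample, so their values for the same genes are set side by side below and are not independent.

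In mutant against null, 0 of 125 probes passed, where 0% of all tested probes passed, and the smallest adjusted p in limma was 0.985. The median difference was 0.05 over the class and 0.02 over all tested probes. At an unadjusted p under 0.05 limma gave 2 probes, where the share of all tested probes was 2.18%: 0 were higher in the mutants, where 1.19% of all tested probes were, and 2 lower, where 0.995% were. The 2 lower probes are large subunit ones, 1 of Rpl35a and 1 of Rpl36. The median difference over the class was 0.01 without mutant mouse 1 and 0.12 without mutant mouse 2. It was -0.003 without null mouse 1 and 0.13 without null mouse 2. Over all tested probes these medians were 0.01, 0.02, 0.01 and 0.04. The arrays of the genotypes did not overlap at 18 of 123 probes with the mutants higher, where this held for 16.7% of all probes, and at 18 with the mutants lower, where it held for 13.7%. Both counts are near the share of all probes. An exact permutation of 2 arrays against 2 cannot go below a two-sided p of 0.333.

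All 4 mice were above the pool at 40 of 123 probes, where the share of all probes was 16.7%, and all 4 were below it at 6, where it was 14.9%. The 40 probes stand for 34 genes, of which 12 also had a tested probe that was not above the pool in every mouse. In the large subunit these are Rpl5, Rpl6, Rpl11, Rpl14, Rpl15, Rpl22, Rpl22l1, Rpl23, Rpl23a, Rpl24, Rpl26, Rpl27, Rpl27a, Rpl28, Rpl30, Rpl31, Rpl36a, Rpl37, Rpl37a and Rpl38. In the small subunit they include Rps7, Rps10, Rps13, Rps14, Rps15a, Rps16, Rps18, Rps20, Rps21, Rps23, Rps27a and Rps28. Under loess the 6 probes below the pool in every mouse belong to Rpl3, Rpl4, Rpl10, Rps2, Rps9 and Rps15.

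Among the small subunit genes, one Rps19 probe gave the highest value of the class. Rps19 is a small subunit protein needed to process the 18S ribosomal RNA, and the gene most often mutated in human Diamond-Blackfan anaemia. Its probe A_51_P337290 read 2.94 and 0.98 in mutant mice 1 and 2, against -0.11 and 1.19 in null mice 1 and 2. Null mouse 2 lay above mutant mouse 2, so the groups overlapped. The mean was 1.96 ± 1.38 in the mutants and 0.54 ± 0.92 in the nulls (SD, n = 2 each), and the limma difference of 1.42 ± 0.76 (SE) had an adjusted p of 0.985. The other tested Rps19 probe, A_52_P404955, was not designed from RefSeq mRNA. It read -0.24 and -0.26 in mutant mice 1 and 2, against 0.27 and 0.06 in null mice 1 and 2. It thus put the mutants below the nulls, with no overlap.

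Rps3 split by probe as well. Its upstream probe, A_52_P768, read 1.40 and 0.66 in mutant mice 1 and 2, against -0.80 and 0.51 in null mice 1 and 2. Both mutants lay above both nulls, and the limma difference of 1.18 ± 0.50 (SE) had an adjusted p of 0.985. The downstream probe, A_51_P318642, read 0.49 and 0.03 in mutant mice 1 and 2, against -0.13 and 0.17 in null mice 1 and 2, with the groups overlapping.

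Rps18, a protein at the head of the small subunit, had 2 probes that read alike and 1 that did not. A_51_P287677 read 1.07 and 0.78 in mutant mice 1 and 2, against 0.32 and 0.55 in null mice 1 and 2. A_52_P193899 read 1.37 and 0.78 in mutant mice 1 and 2, against -0.05 and 0.72 in null mice 1 and 2. The mutants lay above the nulls without overlap at both probes. The other probe, A_51_P274544, read 0.11 and 0.25 in mutant mice 1 and 2, against 0.26 and -0.02 in null mice 1 and 2, with overlap. For A_51_P287677, the mean ratio to the pool was 0.92 ± 0.21 in the mutants and 0.44 ± 0.16 in the nulls (SD, n = 2 each), with adjusted p-values of 0.453 and 0.473 in limma.

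Rps15a, a small subunit protein, read 1.28 and 0.89 in mutant mice 1 and 2 at probe A_52_P577019, against 0.12 and 0.91 in null mice 1 and 2. Its second probe, A_52_P491433, which the files place 9.98 kb downstream, read -0.15 and 0.13 in mutant mice 1 and 2, against -0.03 and -0.08 in null mice 1 and 2. The first probe was high in all mice except null mouse 1, and the second stayed near 0.

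Probes of Rps28, Rps12, Rps7 and Rps20 shared a shape, with mutant mouse 1 above 1 and the other mice closer to the pool, but the further probes of Rps12 and Rps20 did not all have it. Rps28, a small protein near the mRNA exit, read 1.58 and 0.48 in mutant mice 1 and 2, against 0.27 and 0.67 in null mice 1 and 2. Its 3 probes read between 1.32 and 1.58 in mutant mouse 1 and between 0.18 and 0.48 in mutant mouse 2, against 0.09 to 0.27 in null mouse 1 and 0.42 to 0.67 in null mouse 2. Among them A_51_P335671 and A_52_P55271 share 40 bases and are not independent readings. Rps12 read 1.31 and 0.58 in mutant mice 1 and 2, against -0.05 and 0.87 in null mice 1 and 2 at probe A_51_P349435. Its other probe, A_52_P415440, read -0.01 and 0.15 in mutant mice 1 and 2, against 0.20 and -0.23 in null mice 1 and 2, and so was not high in mutant mouse 1.
Rps20 read 1.14 and 0.36 in mutant mice 1 and 2, against 0.57 and 0.84 in null mice 1 and 2 at probe A_52_P5210. Its other probe read 0.63 and 0.43 in mutant mice 1 and 2, against -0.06 and 0.55 in null mice 1 and 2. The groups overlapped at both Rps20 probes. Rps21 read 1.45 and 0.06 in mutant mice 1 and 2, against 0.58 and 0.44 in null mice 1 and 2 at probe A_52_P678800. The probe that overlaps it read 1.48 and -0.18 in mutant mice 1 and 2, against 0.16 and 0.44 in null mice 1 and 2. The third probe, A_51_P489959, read 0.95 and 0.14 in mutant mice 1 and 2, against -0.26 and 0.15 in null mice 1 and 2. Mutant mouse 1 was the highest at all 3 Rps21 probes, and the groups overlapped at each. The median over the class of the SD between the 2 mice was 0.26 in the mutants and 0.16 in the nulls, against 0.14 and 0.19 over all tested probes.

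Rps27a codes for ubiquitin fused to a small subunit protein. It read 0.39 and 0.35 in mutant mice 1 and 2, against 0.80 and 0.81 in null mice 1 and 2. The mice of each genotype lay close together, and the nulls were higher without overlap. The limma difference was -0.43 ± 0.17 (SE), with an adjusted p of 0.985. Under median centring it was 0.16, where the median of all tested probes was 0.38. Relative to all tested probes it thus stood at -0.23 there. The null mean against the pool, 0.80 ± 0.01 (SD, n = 2), had the smallest unadjusted p of the class in that comparison, 0.00121, and an adjusted p of 0.473 in limma.

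The low small subunit genes were few, and median centring turned the sign of those below the pool in every mouse. Under it the mutant means of Rps9, Rps15 and Rps2 were 0.58, 0.67 and 1.10, where the median of all tested probes was 0.60. Rps9, which helps shape the decoding region, read -0.30 and -1.01 in mutant mice 1 and 2, against -0.52 and -0.32 in null mice 1 and 2. Rps15 read -0.49 and -0.37 in mutant mice 1 and 2, against -0.27 and -0.06 in null mice 1 and 2, and was lower in the mutants without overlap. Rps2 read -0.32 and -0.19 in mutant mice 1 and 2, against -0.54 and -0.10 in null mice 1 and 2 at probe A_52_P277592. Its other tested probe read 0.17 and -0.10 in mutant mice 1 and 2, against -0.09 and 0.09 in null mice 1 and 2. One Rps13 probe, A_51_P327469, read 0.71 and 0.34 in mutant mice 1 and 2, against 0.20 and 0.31 in null mice 1 and 2. The other, A_52_P646112, read -0.53 and -0.29 in mutant mice 1 and 2, against 0.86 and -0.41 in null mice 1 and 2, so that null mouse 1 alone was above the pool.

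Rps6 is the small subunit protein that S6 kinase phosphorylates. Its probe A_52_P531325 was not designed from RefSeq mRNA. It read -0.24 and -0.10 in mutant mice 1 and 2, against 0.06 and 0.10 in null mice 1 and 2. The other Rps6 probe, A_51_P344734, read -0.35 and 0.01 in mutant mice 1 and 2, against -0.30 in null mouse 1; its spot in null mouse 2 carried an outlier flag and was dropped. The first probe thus lay near the pool in every mouse, while the second was below it in mutant mouse 1 and null mouse 1.

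In the large subunit, Rpl36al was highest in the mutants. It is a paralog of Rpl36a with which it shares nearly the same protein. It read 1.48 and 0.72 in mutant mice 1 and 2, against -0.01 and 0.58 in null mice 1 and 2, with no overlap. The mean was 1.10 ± 0.54 in the mutants and 0.28 ± 0.42 in the nulls (SD, n = 2 each), and the limma difference of 0.81 ± 0.35 (SE) had an adjusted p of 0.985.

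Rpl29, a small basic protein on the surface of the large subunit, had 4 probes that ordered the mice alike at the extremes. They read between 0.68 and 1.01 in mutant mouse 1 and between 0.18 and 0.40 in mutant mouse 2, against -0.46 to -0.08 in null mouse 1 and 0.19 to 0.38 in null mouse 2. The mutant minus null difference lay between 0.43 and 0.75 over the 4 probes, of which A_52_P505977 and A_52_P217069 share 20 bases and are not independent readings. Null mouse 2 and mutant mouse 2 were close at all 4, and the difference rested on mutant mouse 1 and null mouse 1.

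Rpl3 and Rpl4, long proteins of the large subunit core, were below the pool in every mouse under loess. Under median centring their mutant means were 1.09 and 0.92, and their null means 0.09 and -0.15. The medians of all tested probes there were 0.60 in the mutants and 0.14 in the nulls. Rpl3 read -0.28 and -0.19 in mutant mice 1 and 2, against -0.98 and -0.24 in null mice 1 and 2. Rpl4 read -0.12 and -0.42 in mutant mice 1 and 2, against -1.15 and -0.24 in null mice 1 and 2. Null mouse 1 was the low value in both, and the other 3 mice lay close together. Their mutant minus null differences, 0.37 and 0.43, kept their sign under median centring, at 1.00 and 1.07. Relative to the median of all tested probes there, they stood at 0.61 and 0.69. Rpl10, which joins the subunit last, read -0.58 and -0.16 in mutant mice 1 and 2, against -0.19 and -0.11 in null mice 1 and 2, at the lower of its 2 probes.

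A small set of large subunit genes read lower in the mutants under loess. Rpl35a, mutated in some human Diamond-Blackfan anaemia, read -0.43 and 0.04 in mutant mice 1 and 2, against 0.50 and 0.36 in null mice 1 and 2, at probe A_52_P288669. Its overlapping probe A_51_P509107 read -0.41 and 0.10 in mutant mice 1 and 2, against 0.41 and 0.26 in null mice 1 and 2. The limma difference at the first was -0.63 ± 0.23 (SE), with an unadjusted p of 0.0422, the smallest of the class between the genotypes, and an adjusted p of 0.985.
Rpl36 read -0.27 and -0.17 in mutant mice 1 and 2, against 0.28 and 0.20 in null mice 1 and 2, at probe A_52_P233312. Its overlapping probe A_51_P361875 read -0.14 and -0.12 in mutant mice 1 and 2, against 0.12 and 0.23 in null mice 1 and 2. Rpl39, one of the shortest ribosomal proteins, read -0.16 and -0.13 in mutant mice 1 and 2, against 0.22 and 0.27 in null mice 1 and 2. In Rpl36 and Rpl39 the mice of a genotype lay on the same side of the pool and the genotypes on opposite sides. Both mutants were below the pool and both nulls above it at 6 of 123 probes, where this held for 3.26% of all probes, and the reverse held at 0 of 123, where it held for 3.81%. Under median centring the mutant minus null difference of Rpl36 (A_52_P233312) was 0.13 and that of Rpl39 0.21, where the median of all tested probes was 0.38, so that relative to all probes they stood at -0.26 and -0.17. The better-separated Rpl35a probe stayed below 0 there, at -0.03, and its partner was at 0.11. The Rpl36 probe A_52_P233312 shares a run of at least 35 bases with a probe of another name, LOC436081, on chromosome 4, so signal from near copies cannot be told apart from its own.

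Rpl38 and 1 of the 2 Rpl27a probes were above the pool in all mice and, under loess, higher in the nulls. Under median centring the mutant minus null differences were 0.18 and 0.38. Relative to the median of all tested probes there, they stood at -0.20 and -0.001. Rpl38, known in the mouse for its part in translating Hox messages, read 0.43 and 0.07 in mutant mice 1 and 2, against 0.80 and 0.50 in null mice 1 and 2. Rpl27a read 0.33 and 0.21 in mutant mice 1 and 2, against 0.52 and 0.51 in null mice 1 and 2 at probe A_51_P132459. Its other probe, A_51_P418662, read -0.19 and -0.06 in mutant mice 1 and 2, against 0.33 and -0.39 in null mice 1 and 2, with overlap. Rpl30 read 0.69 and 0.11 in mutant mice 1 and 2, against 0.48 and 0.57 in null mice 1 and 2, with the groups overlapping.

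**Figure D3:**
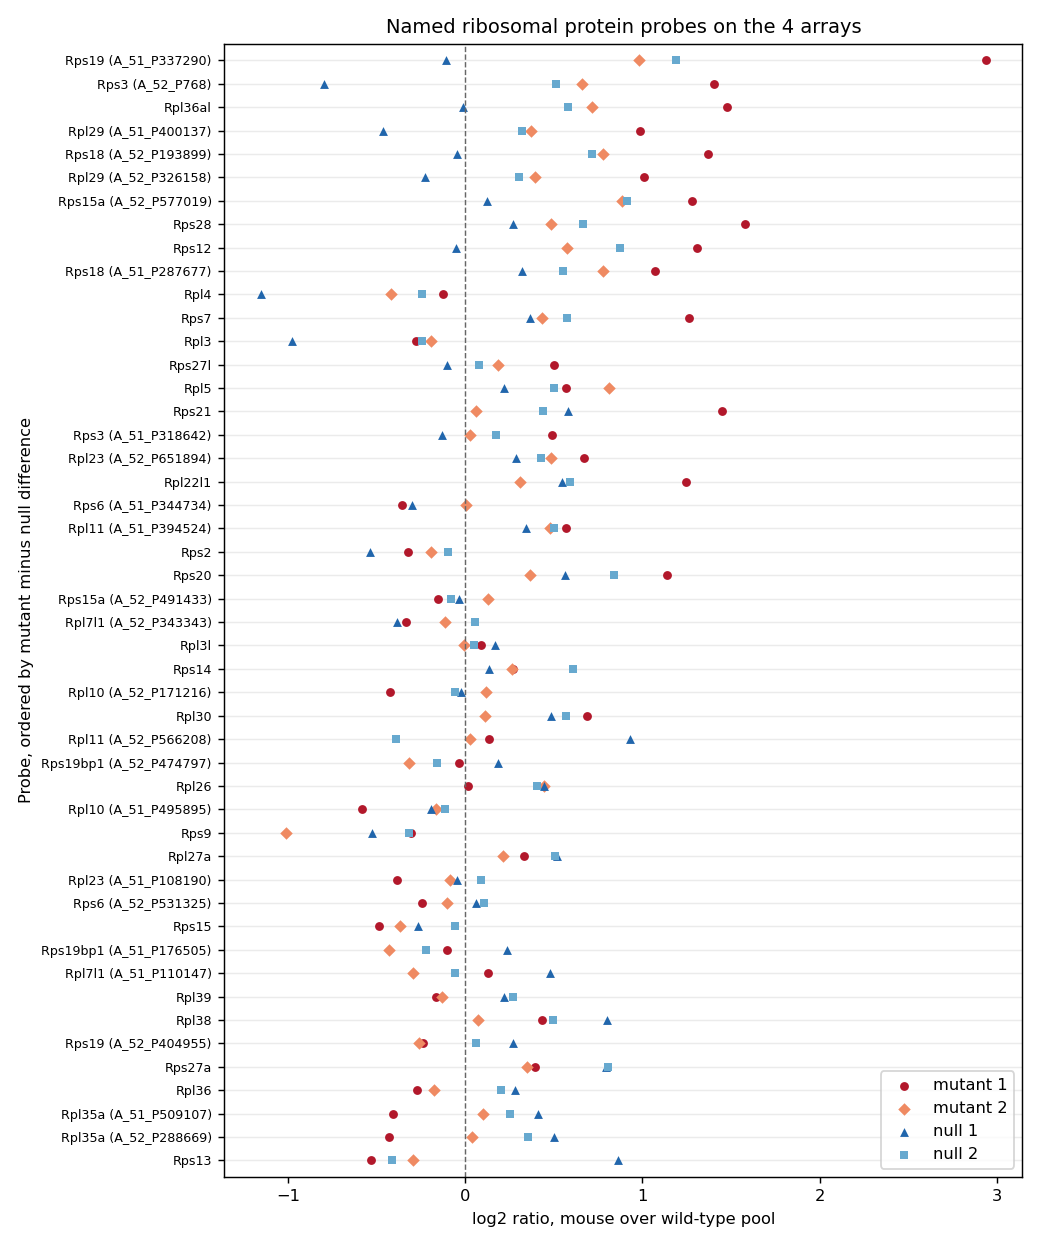
Log2 ratio of mouse over wild-type pool at 48 named ribosomal protein probes, 1 row per probe, ordered by the mutant minus null difference from highest at the top. Each marker is 1 mouse. Mutant mouse 1 lies farthest right in most rows near the top, null mouse 1 farthest left there, and of the rows at the bottom those of Rpl35a, Rpl36, Rps27a and Rpl39 have both mutants left of both nulls, while in the last, Rps13, null mouse 2 lies between the mutants.

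A set of genes whose proteins are known to bind Mdm2 was chosen: Rpl5, Rpl11, Rpl23, Rpl26, Rps7 and Rps14. Each had a probe above the pool in all mice under loess, where 34 of the 77 tested genes of the class had one. By probe this held for 40 of 123 in the class and for 16.7% of all probes. The other probes of Rpl11 and Rpl23 were not above the pool in all mice. The set need not hold every member that binds Mdm2, so nothing is stated about all such genes. Rpl5, which joins the ribosome with 5S ribosomal RNA, read 0.57 and 0.81 in mutant mice 1 and 2, against 0.22 and 0.50 in null mice 1 and 2, with the mutants higher without overlap. Its partner Rpl11 read 0.57 and 0.48 in mutant mice 1 and 2, against 0.34 and 0.50 in null mice 1 and 2, at the probe on its RefSeq transcript. A second Rpl11 probe, A_52_P566208, read 0.13 and 0.03 in mutant mice 1 and 2, against 0.93 and -0.39 in null mice 1 and 2. Rpl5 had a difference of 0.33 ± 0.21 (SE) between the genotypes, with an adjusted p of 0.985 in limma.
Rpl23 read 0.67 and 0.48 in mutant mice 1 and 2, against 0.29 and 0.43 in null mice 1 and 2, at probe A_52_P651894. Its other probe, A_51_P108190, read -0.38 and -0.08 in mutant mice 1 and 2, against -0.04 and 0.09 in null mice 1 and 2, and so gave the opposite order. Rps7 read 1.26 and 0.43 in mutant mice 1 and 2, against 0.37 and 0.58 in null mice 1 and 2. Rps7, Rpl26, Rps14 and both Rpl11 probes separated the genotypes in neither direction.
Rpl26 read 0.01 and 0.44 in mutant mice 1 and 2, against 0.45 and 0.41 in null mice 1 and 2. Rps14 read 0.27 and 0.26 in mutant mice 1 and 2, against 0.14 and 0.61 in null mice 1 and 2. Mdm2 itself, a p53 target, read -0.25 and 0.06 in mutant mice 1 and 2, against -0.35 and -0.37 in null mice 1 and 2. All 4 mice were conditional for Trp53.

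The variants and paralogs did not share a pattern. Rpl22l1, the paralog of Rpl22, read 1.24 and 0.31 in mutant mice 1 and 2, against 0.54 and 0.59 in null mice 1 and 2. Rps27l, a paralog of Rps27 known as a p53 target, read 0.50 and 0.19 in mutant mice 1 and 2, against -0.10 and 0.08 in null mice 1 and 2, higher in the mutants without overlap and with an adjusted p of 0.985 in limma. Rpl3l, the paralog of Rpl3 found in heart and skeletal muscle, read between -0.01 and 0.17 in all mice.
The 2 probes of Rpl7l1, a relative of Rpl7 with a part in ribosome assembly, had mutant minus null differences of -0.30 and -0.06. Those of Rps19bp1 were -0.28 and -0.19. Neither separated the genotypes. Rpl34, Rps4l and Rpl39l stand under older names in the files and are no members by the rule; the probes of Rpl39l did not pass the signal filter. Rpl34, under the name 1100001I22Rik, read 2.05 and 0.78 in mutant mice 1 and 2, against -0.01 and 0.95 in null mice 1 and 2, at the higher of its probes. That probe had the shape of the high Rps19 probe. The other Rpl34 probe did not, with 0.88 and 0.59 in mutant mice 1 and 2, against 0.42 and 0.77 in null mice 1 and 2. Rps4l, under 1110033J19Rik, read 0.20 and 0.11 in mutant mice 1 and 2, against 0.07 and 0.76 in null mice 1 and 2.

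The remaining 78 tested probes had medians of 0.35 and 0.17 in mutant mice 1 and 2, against 0.08 and 0.23 in null mice 1 and 2. They ran between -0.67 and 1.48 in mutant mouse 1 and between -0.73 and 0.58 in mutant mouse 2, against -0.55 to 1.16 in null mouse 1 and -0.45 to 0.55 in null mouse 2. Rpl7, a large subunit protein, was among them and was not above the pool in mutant mouse 1. Its 3 probes read between -0.67 and 0.00 there and between 0.28 and 0.49 in mutant mouse 2, against -0.52 to 0.11 in null mouse 1 and 0.05 to 0.33 in null mouse 2. Rpl7 was picked after its values were seen.

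Ribosomal protein genes often had several probes, and these did not always read alike. Over the 38 genes with more than 1 tested probe, the median range between probes of a gene was 0.47 and 0.27 in mutant mice 1 and 2, against 0.26 and 0.25 in null mice 1 and 2. The largest was 3.18, in mutant mouse 1, for Rps19. Probes spotted 10 times on the array had a median SD between spots of 0.080 and 0.073 in mutant mice 1 and 2, against 0.083 and 0.066 in null mice 1 and 2. For the Rplp0 probe this SD was 0.063 and 0.20 in mutant mice 1 and 2, against 0.076 and 0.042 in null mice 1 and 2. A range and an SD are unlike measures, so these values do not show how far probes differed beyond spots.

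Where 2 probes of 1 transcript lay at least 100 bases apart, the upstream and downstream readings were compared, a contrast chosen after the values were seen. Upstream minus downstream had a median over ribosomal protein pairs of 0.26 and 0.13 in mutant mice 1 and 2, against -0.12 and 0.06 in null mice 1 and 2. Over all pairs tested the medians were 0.02 and -0.01 in mutant mice 1 and 2, against -0.09 and -0.06 in null mice 1 and 2. The upstream probe was the higher one in 16 of 24 pairs in mutant mouse 1 and 17 of 24 in mutant mouse 2, against 8 of 23 in null mouse 1 and 12 of 23 in null mouse 2. As shares of pairs these were 66.7% and 70.8% in mutant mice 1 and 2, against 34.8% and 52.2% in null mice 1 and 2. Over all pairs tested the shares were 51.8% and 47.6% in mutant mice 1 and 2, against 39.2% and 40.1% in null mice 1 and 2. Loss of upstream signal is a sign of RNA breakage, and the part of RNA quality in these differences was not tested.

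**Figure D4:**
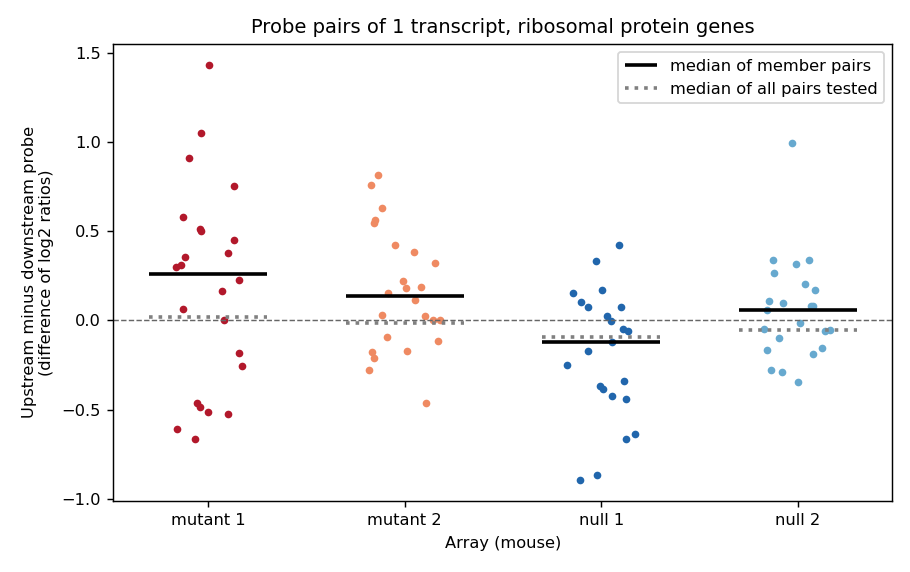
Difference of log2 ratios between the upstream and the downstream probe of 1 transcript for ribosomal protein genes (24 pairs in the mutants, 23 in the nulls). Solid lines are medians of these pairs and dotted lines medians of all pairs tested on the array. The medians are 0.26 and 0.13 in mutant mice 1 and 2, against -0.12 and 0.06 in null mice 1 and 2.

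Values also differed with the kind of sequence a probe was designed from. The 110 probes on RefSeq mRNA accessions had medians of 0.37 and 0.18 in mutant mice 1 and 2, against 0.08 and 0.29 in null mice 1 and 2. The 16 on other accessions, such as cDNA clones, had 0.05 and 0.05 in mutant mice 1 and 2, against 0.26 and -0.05 in null mice 1 and 2. The order of null mice 1 and 2 turned round between these kinds of probe. It did so over all tested probes too, with medians of -0.06 and 0.02 in null mice 1 and 2 on RefSeq accessions and 0.09 and 0.01 on others. The correlation between a probe's GC content and its log2 ratio was 0.11 and 0.03 in mutant mice 1 and 2, against -0.27 and -0.05 in null mice 1 and 2. It was taken over 124 to 126 probes that share an array, and is a description only. Over all tested probes it was -0.01 and -0.15 in mutant mice 1 and 2, against -0.14 and -0.08 in null mice 1 and 2.

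Promoter sequences from RefSeq (GRCm38.p6) were matched by symbol for 58 of the 78 names. Each covers 250 bases before and 50 after the listed start. A run of 5 or more C or T within 5 bases of the start, as in a TOP element, was found in 55.2% of the matched genes and in 36.7% of 17486 protein-coding genes. Windows of 30 bases around the start are shown for genes with a probe that stood high, low or near the pool, with the run in capitals. They are Rps18 at chr17:33955651-33955680 (minus strand), Rpl27a at chr7:109519180-109519209 (plus), Rpl35a at chr16:33056467-33056496 (plus), Rps6 at chr4:86857353-86857382 (minus) and Rps9 at chr7:3704026-3704055 (plus).
Rps18: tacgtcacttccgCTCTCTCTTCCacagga
Rpl27a: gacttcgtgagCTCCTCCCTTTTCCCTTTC
Rpl35a: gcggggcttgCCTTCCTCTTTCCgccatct
Rps6: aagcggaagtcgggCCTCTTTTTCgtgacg
Rps9: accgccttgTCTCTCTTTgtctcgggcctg
The windows shown were taken from genes that have the run, so they cannot tell whether it goes with the direction of the readings. These genes include some with a probe above the pool in all mice (Rpl27a, and Rps18 at A_51_P287677). They also include Rps9, with its only probe below the pool in all mice, and Rpl35a, lower in the mutants. The letters CCGGAAGT, on either strand, the core bound by GABP, were in 19.0% of the matched promoters and 5.69% of all. AAGATGGC, on either strand, bound by YY1, was in 10.3% and 3.56%, and GGGCGG, on either strand, bound by Sp1, in 60.3% and 49.2%. TATAAA in the 50 bases before the start was in 1.72% and 3.81%. These matches are letters in a window and no evidence of binding.

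The ribosomal genes with other names were read beside the class. The list of 7, which includes Rplp0, Rplp1, Rplp2, Rpsa, Fau and Rack1, had medians of 0.78 and 0.06 in mutant mice 1 and 2, against 0.04 and 0.26 in null mice 1 and 2, with 0 of 7 past the adjusted threshold in any comparison. Rplp1, a protein of the stalk that recruits elongation factors, read 0.93 and 0.46 in mutant mice 1 and 2, against 0.44 and 0.85 in null mice 1 and 2. Rpsa read 1.13 and -0.09 in mutant mice 1 and 2, against -0.63 and 0.21 in null mice 1 and 2. As in the class, mutant mouse 1 was the high one.
Rplp0, whose probe was spotted 10 times, read 0.62 and 0.03 in mutant mice 1 and 2, against 0.04 and 0.26 in null mice 1 and 2. Rplp2 read 1.09 and 0.09 in mutant mice 1 and 2, against 0.69 and 0.68 in null mice 1 and 2. Rack1 read 0.51 and 0.37 in mutant mice 1 and 2, against -0.38 and 0.46 in null mice 1 and 2. Fau had no value in mutant mouse 1 and read -0.32 in mutant mouse 2, against 0.10 and 0.03 in null mice 1 and 2.

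Among other genes of protein synthesis, the lists of translation factors and assembly genes did not have the class's order of mice, and the mitochondrial ribosomal list did. The 38 translation factors had medians of -0.21 and -0.02 in mutant mice 1 and 2, against 0.18 and -0.03 in null mice 1 and 2. The elongation factor Eef1a1 read -0.58 and -0.05 in mutant mice 1 and 2, against -0.11 and -0.04 in null mice 1 and 2. The 39 ribosome assembly genes had medians of -0.13 and -0.11 in mutant mice 1 and 2, against 0.22 and -0.01 in null mice 1 and 2. The nucleolar proteins nucleolin and nucleophosmin differed from each other.
Ncl read -0.36 and -0.28 in mutant mice 1 and 2, against 0.04 and -0.47 in null mice 1 and 2. Npm1 read 0.59 and 0.36 in mutant mice 1 and 2, against 0.59 and 0.66 in null mice 1 and 2. The 78 mitochondrial ribosomal protein genes, which serve the separate ribosomes of mitochondria, had medians of 0.17 and 0.05 in mutant mice 1 and 2, against -0.03 and 0.17 in null mice 1 and 2. These medians had the same order of mice as the cytosolic class and lay nearer 0 on every array.
The 12 measured genes of growth control (Myc and the mTOR pathway) had medians of 0.01 and 0.14 in mutant mice 1 and 2, against 0.06 and -0.06 in null mice 1 and 2. In each of these lists 0 genes passed the adjusted threshold in any of the 3 comparisons in limma, where 0% of all tested probes passed. At an unadjusted p under 0.05 in mutant against pool there were 0 higher and 4 lower of 38 translation factors, 2 higher and 3 lower of 39 assembly genes, and 10 higher and 1 lower of 78 mitochondrial ribosomal genes, where 6.25% of all tested probes were higher and 4.36% lower.

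The authors' deposited table sets the mutant and null means side by side and gives the larger over the smaller as a ratio, for 78 rows whose accession belongs to a member probe. By the authors' deposited table the mutants are higher in 50 of these and lower in 28, a share of 64.1% higher, where 51.7% of all 26174 rows are. Ratios of larger over smaller mean in the authors' deposited table run between 1.13 and 3.04 for these rows. The ratio of 3.04 belongs to 1 Rps19 row, higher in the mutants, with a mutant mean of 4.45 ± 2.58 (SEM). The other Rps19 rows are lower in the mutants, at 1.2 and 1.29. The rows also include probes that did not pass the signal filter used here, such as an Rps4x probe with a ratio of 3.01. That table lists no ratio under 1.13 for any row.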

How the data were processed

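The deposited scanner files give spot brightness as intensity (mean signals, background medians and processed signals) and the deposited log10 ratio of red over green, per the file headers. A further table deposited by the authors holds a linear ratio of mutant and null means. Feature Extraction, Agilent's image software, is version 9.5.1.1 per the file headers and 8.5 per the submitters' processing notes. With R 4.3.3 and limma 3.58.1, normexp (offset 50) corrected the mean signals and loess normalised each array, with control spots at weight 0 and outlier-flagged spots dropped. No member spot was saturated. The signal filter kept 24925 of 41174 probes. Log2 ratios were fitted with lmFit and eBayes, 1 term per genotype, with Benjamini-Hochberg adjustment over all tested probes and a threshold of 0.05. The fit was tested on simulated data.

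The pool counts as 1 sample, whose own spread between animals is not in the tests, and without a dye swap an unequal dye response stays in them. The labels name separate mice. All arrays came from 1 slide and 1 scan, and the position on the slide and the genotype cannot be told apart. The same-numbered mice did not deviate together (r = 0.0036 over probes). The members, gene lists and alternatives were chosen with earlier results of these data known, so no p is given over a list. Named genes were those at an extreme of each comparison, genes whose probes differed by more than 1 log2 unit, paralogs, Mdm2 binders, Rps6 and the markers. Some genes that this rule took, and some members, are not reported here. For gene lists the brightest probe stood for a gene. Protein sequences were not used here. The number of arrays limits the precision. Alternatives are listed in the closing section.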

Additional observations from a re-analysis of the deposited data

Results flagged for a closer look

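At 4 named probes both mutant mice lay below the pool and both null mice above it, which drew attention to them as opposite readings in the genotypes. The mutant minus null log2 difference was -0.46 for Rpl36 (A_52_P233312), -0.39 for Rpl39 (A_51_P139244), -0.41 for Rps19 (A_52_P404955) and -0.26 for Rps6 (A_52_P531325). The overlapping second Rpl36 probe, at -0.31, had the same pattern, which held for 6 of 123 probes in all, where 3.26% of all probes had it. The opposite pattern held for 0 of 123 probes, where 3.81% of all probes had it. The adjusted p of each difference in limma was 0.985, so none passed the test of the difference itself. The flagged Rps19 and Rps6 probes were not designed from RefSeq mRNA. The other tested probes of these genes were, and had the opposite sign, at 1.42 and 0.12. The flagged Rps6 probe lies at chr4:86241021-86241080, downstream of the RefSeq one at chr4:86259708-86259899 (minus strand). The RefSeq Rps6 probe had no value in null mouse 2. Under median centring the differences of the Rpl36, Rpl39 and Rps19 probes were 0.13, 0.21 and 0.17, where all tested probes had a median of 0.38, and that of Rps6 was -0.23. With 2 mice a genotype no group was large enough to look for single outlying samples.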

How the results depend on the processing

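No member probe passed the adjusted threshold in limma under any alternative that keeps every mouse. These were Agilent's processed signals, median centring, a loess curve without the members, no signal filter and a stricter filter. The others were the brightest probe per gene, flagged spots kept and the replicate block. Medians and counts at an unadjusted p under 0.05 did vary, and the cause was not tested. Under median centring the class median was 1.51 in mutant against pool, 0.80 in null against pool and 0.64 in mutant against null, and 111, 63 and 1 probes were higher. The medians of all tested probes moved as well, to 0.60, 0.14 and 0.38. Of all tested probes 11107 of 24925, 2774 of 24922 and 957 of 24922 had an unadjusted p under 0.05 in limma, in either direction. With processed signals 18 probes were higher in mutant against pool and 3 in null against pool. Counted in either direction, 2060 of 24925 and 2503 of 24922 tested probes were below that p there. With 1 probe per gene, 21 were higher in mutant against pool, of fewer probes tested, where 1726 of all 16988 were below that p in either direction. With no signal filter 1 was higher in mutant against null, while 6 were lower there and 6 in mutant against pool. Over all probes these comparisons had 1114 of 41170 and 4138 of 41173 below that p in either direction. Lower probes, 2 in each comparison, otherwise numbered 0 to 2 under the alternatives that keep every mouse. Leaving out each mouse gave 2 to 38 higher in mutant against pool, 9 to 14 in null against pool and 0 to 14 in mutant against null. The labels number the mice of both genotypes, but same-numbered mice did not deviate together (r = 0.0036), so they share only a number. With the replicate block 9 probes were higher in null against pool, where 2443 of all 24922 were below that p in either direction. The block changed no adjusted call of a member probe. Signal over background limits the faint probes, and 121 of the 126 were well above it in both channels on all arrays. Under median centring the sign differed at 20, 10 and 21 of 48 named probes in mutant against pool, null against pool and mutant against null.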
